A study of Mus musculus with 4 samples.

Results

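A set of 8 genes known from striatal spiny projection neurons, receptors and phosphoproteins of dopamine signalling among them, was followed through GABAergic neurons sampled from the BNST, the bed nucleus of the stria terminalis. They were Ppp1r1b, Arpp21, Drd1, Drd2, Adora2a, Crym, Nexn and Rxrg, chosen by name from the 20136 genes that the count tables list, and all 8 were found. Drd1 stands in the tables under its older symbol, Drd1a. The study profiled single cells by Drop-seq, a droplet method that tags the 3' end of each transcript with a cell barcode and a unique molecular identifier (UMI), so that a UMI stands for 1 captured transcript. Tissue punches of the BNST came from wildtype male C57BL/6J mice kept on a reversed light cycle with free access to chow; no ages are given in the sources used here. There were 4 libraries, the study's batches 1 to 4, and each pooled 6 mice, so the 24 mice could not be told apart and the library was the replicate. All 4 libraries belonged to 1 group, without treatment or mutation, and every comparison below was between classes of cells within the same libraries. The striatum lies beside the BNST, and the counts cannot tell a spiny neuron of the nucleus from one of striatal tissue taken up by a punch.

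Dopamine acts in the striatum through the D1 receptor (Drd1), which raises cAMP in projection neurons of the direct pathway, and the D2 receptor (Drd2), which lowers it in those of the indirect pathway, where the adenosine A2a receptor (Adora2a) opposes it. Ppp1r1b encodes the dopamine- and cAMP-regulated phosphoprotein that inhibits protein phosphatase 1 once protein kinase A has phosphorylated it, and Arpp21 encodes another phosphoprotein regulated by cAMP in the same neurons. Direct-pathway neurons are known for the peptide precursors Tac1 and Pdyn, and indirect-pathway neurons for Penk.

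In GENCODE vM21 on GRCm38, Drd1 lies on the minus strand at chr13:54051183-54055705 and Drd2 on the plus strand at chr9:49340627-49408177. The other receptor gene, Adora2a, lies at chr10:75316877-75334784 on the plus strand. Ppp1r1b was annotated at chr11:98348404-98357796 (plus), Arpp21 at chr9:112065091-112235938 (minus), Crym at chr7:120186380-120202111 (minus), Nexn at chr3:152236982-152266350 (minus) and Rxrg at chr1:167598384-167639623 (plus). Ppp1r1b overlaps 1700003D09Rik on the other strand, and Arpp21 overlaps 2310075C17Rik and 2900079G21Rik. All 3 partners are listed in the tables, and the counting strand is not given in the sources used here, so reads of these pairs could have been exchanged. The 250 bases before a RefSeq start on GRCm38.p6 are shown for the pair of dopamine receptors, because the question was how these receptors divide between neurons. RefSeq lists 2 starts for Drd1 and 1 for Drd2, and a single window was read per gene. The windows do not adjoin the GENCODE starts: that of Drd1 reaches into the gene interval above, and that of Drd2 ends short of it. They run 5' to 3' on the strand of the gene, from chr13:54055659-54055908 for Drd1 and chr9:49340153-49340402 for Drd2, and capitals mark a GC box (GGGCGG, or CCGCCC on the other strand).
Drd1: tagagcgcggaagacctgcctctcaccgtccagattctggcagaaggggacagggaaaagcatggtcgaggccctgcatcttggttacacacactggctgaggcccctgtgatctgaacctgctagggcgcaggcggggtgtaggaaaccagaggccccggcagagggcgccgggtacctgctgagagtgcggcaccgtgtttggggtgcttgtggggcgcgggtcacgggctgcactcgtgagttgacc
Drd2: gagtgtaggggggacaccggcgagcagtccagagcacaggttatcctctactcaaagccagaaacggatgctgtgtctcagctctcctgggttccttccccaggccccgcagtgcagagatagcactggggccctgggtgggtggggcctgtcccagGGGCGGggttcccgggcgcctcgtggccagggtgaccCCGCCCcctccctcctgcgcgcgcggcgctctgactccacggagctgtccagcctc
The Drd2 window held 2 GC boxes, at a GC content of 68.8%, and the Drd1 window held none at 64.0%. A GC box occurred in 32.74% of the 32851 RefSeq promoter windows of that length. Neither window held the core of a cAMP response element (TGACG or CGTCA, in 17.77% of windows) or a nuclear receptor half-site (AGGTCA or TGACCT, in 14.02%). Windows of Arpp21 and Rxrg, the only other members with an entry, had none of the 3 motifs at GC contents of 40.4% and 49.2%. RefSeq lists 9 and 2 starts for these genes, and other starts were not read.

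The libraries held between 1800 and 3600 barcodes and between 2640399 and 5652342 UMIs. After filters, 4181 cells were kept, between 837 and 1281 per library. Between 1 and 7 barcodes were shared by any pair of libraries, and 0 among kept cells. A cell was called a GABAergic neuron with at least 2 UMIs over Gad1, Gad2 and Slc32a1, more than over the glutamatergic markers and fewer than 2 over glial and vascular markers. This gave 2131 neurons, 668, 472, 354 and 637 in libraries 1 to 4, with a median of 3462 UMIs per cell. Levels are given in CPM, the UMIs of a gene per 1000000 UMIs of the summed cells of a class, as a value per library and as mean ± SD over libraries. Library 4 stood apart for several members, with the highest Ppp1r1b, Crym, Arpp21 and Nexn in these neurons, and results that rest on it are given without it.

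Ppp1r1b was at 76.2, 65.5, 105 and 151 CPM in the GABAergic neurons of libraries 1 to 4 (99.6 ± 38.3, SD, n = 4), and 277 of the 2131 neurons held a UMI of it. Arpp21 was at 602, 491, 599.5 and 720.5 CPM (603 ± 93.6), with a UMI in 989 neurons (46.4%). Both phosphoprotein genes were lowest in library 2 and highest in library 4. Drd1 was at 28.1, 19.2, 41.3 and 29.4 CPM (29.5 ± 9.06), from 247 UMIs in 174 neurons, 8.17% of all (exact 95% binomial interval 7.04 to 9.41%; intervals here hold counting error alone). Drd2 was almost absent: 5 UMIs in 5 neurons, 0.235% (0.0762 to 0.547%), of which 1 was in library 1 and 4 in library 4. Over all barcodes, Drd2 had 6 UMIs, and library 2, whose table lists no Drd2, had 0. Adora2a had 12 UMIs in 12 neurons, 0.563% (0.291 to 0.982%), at 1.14, 1.60, 1.47 and 1.58 CPM. The receptors of the indirect pathway were thus at the edge of what these libraries could detect.

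The other 3 members are not part of the dopamine receptor cascade itself. Crym, which encodes the thyroid hormone-binding protein mu-crystallin, was at 57.4, 45.3, 61.9 and 88.2 CPM (63.2 ± 18.1) and was seen in 238 neurons (11.2%). Nexn, which encodes the actin-binding protein nexilin, was at 8.53, 7.99, 9.58 and 21.5 CPM (11.9 ± 6.45) from 99 UMIs in 58 neurons (2.72%). Library 4 stood above the other 3, which agreed closely. Rxrg, the retinoid X receptor gamma, was at 42.9, 59.2, 30.9 and 45.7 CPM (44.7 ± 11.6) and was seen in 295 neurons (13.8%).

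As background, the same genes were read in 1388 non-neuronal cells, which had at least 2 glial or vascular marker UMIs and none of the neuronal ones, at a median of 1144 UMIs. Of the 8 members, 5 passed the low-count filter, and 4 were higher in neurons and 1 lower by edgeR's quasi-likelihood test with library as a block, where 70.3% of 9972 genes passed a Benjamini-Hochberg adjusted p of 0.05 in either direction. Drd1 gave 1 UMI in the non-neuronal cells, 0.0720% of cells, against 247 in neurons (log2 fold change 5.36, SE 0.66, adjusted p = 8.86e-10). Rxrg gave 2 UMIs (5.02, SE 0.53, adjusted p = 1.25e-11), and Ppp1r1b stood at 9.36 ± 3.65 CPM, in 17 cells or 1.22% (3.05, SE 0.26, adjusted p = 1.49e-14). The background of these 3 genes was thus far below their neuronal level. Drd2 and Adora2a had a UMI in 0 of 1388 non-neuronal cells, where 3 counts would be 0.216% of cells; this limits cells with a UMI at a median of 1144 UMIs, not cells that express the genes.

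Crym went the other way. Its non-neuronal level was 89.1 ± 33.7 CPM, above the neurons in 3 of 4 libraries (edgeR log2 -0.84 for neurons, SE 0.16, adjusted p = 1.07e-05). Once cells with fewer than 800 genes were left out, the difference was -0.0024 and its adjusted p 0.993 by edgeR. Cells with astrocyte markers carried 173 of the 175 UMIs: in these 365 cells Crym was at 703.2, 445.5, 262 and 644.5 CPM, and 73 of them (20.0%) held a UMI. Ppp1r1b gave 16 UMIs and Drd1 0 in the same cells. Crym is known from astrocytes of the striatum as well as from its neurons. Arpp21 was likewise read in 113 cells with oligodendrocyte precursor markers, at 393 ± 56.2 CPM from 55 UMIs, although it was higher in neurons than in non-neuronal cells as a whole (log2 3.02, SE 0.13, adjusted p = 1.23e-25).

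The first comparison asked whether the members rose in neurons that carry other genes of spiny projection neurons. The spiny gate took GABAergic neurons with at least 2 UMIs over a set of 4 signalling genes of those cells that are not members, among them Rgs9, Rasd2 and Pde10a. It held 573 neurons (26.9%; 211, 110, 109 and 143 by library) at a median of 4814 UMIs, against 3004.5 in the 1558 neurons outside. Of the 6 members that passed the low-count filter, 5 were higher in the gate and 0 were lower, where 1.66% of 9356 genes were called higher and 2.89% in either direction.

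Ppp1r1b was at 126, 137, 195 and 344 CPM inside the gate and at 37.7, 32.7, 36.5 and 74.2 outside it. The groups did not overlap, and library 4 was highest in both. The difference was 2.07 on the log2 scale (SE 0.11, edgeR adjusted p = 4.39e-17), and a fixed depth gave the same direction: with 1000 UMIs drawn from each cell, 17.2% of neurons inside and 4.01% outside would show a Ppp1r1b UMI, leaving out 9 and 186 shallower cells. Without thinning, 28.1% of the neurons inside held one. Crym was at 101, 96.1, 107 and 182 CPM inside and 24.1, 21.8, 27.4 and 50.7 outside (log2 1.97, SE 0.13, adjusted p = 2.12e-14). Arpp21 was at 928, 755, 878 and 1466 CPM inside and 352, 369, 386 and 423 outside (1.37, SE 0.07, adjusted p = 6.89e-18). These 3 genes rose together in all 4 libraries.

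Among the receptors, Drd1 was at 46.5, 27.0, 71.2 and 40.5 CPM in the spiny gate and at 14.1, 15.6, 18.2 and 25.0 outside it (log2 1.34, SE 0.21, adjusted p = 3.51e-05). The lowest library inside was only just above the highest outside. Nexn was at 13.8, 20.2, 17.0 and 51.5 CPM inside and at 4.52, 2.34, 3.91 and 9.55 outside (2.22, SE 0.33, adjusted p = 1.18e-05). In an edgeR fit without library as a block, Drd1 and Nexn no longer passed, at adjusted p = 0.0798 and 0.0986. Rxrg was at 49.8, 64.1, 35.6 and 64.4 CPM inside and 37.7, 56.9, 27.4 and 38.2 outside, which did not pass (0.40, SE 0.15, adjusted p = 0.208). Adora2a had 11 UMIs inside and 1 outside, and Drd2 had 2 inside and 3 outside. Neither reached the low-count filter; in a fit with no filter, Adora2a differed by 3.58 on the log2 scale with an adjusted p of 0.247.

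**Figure D1:**
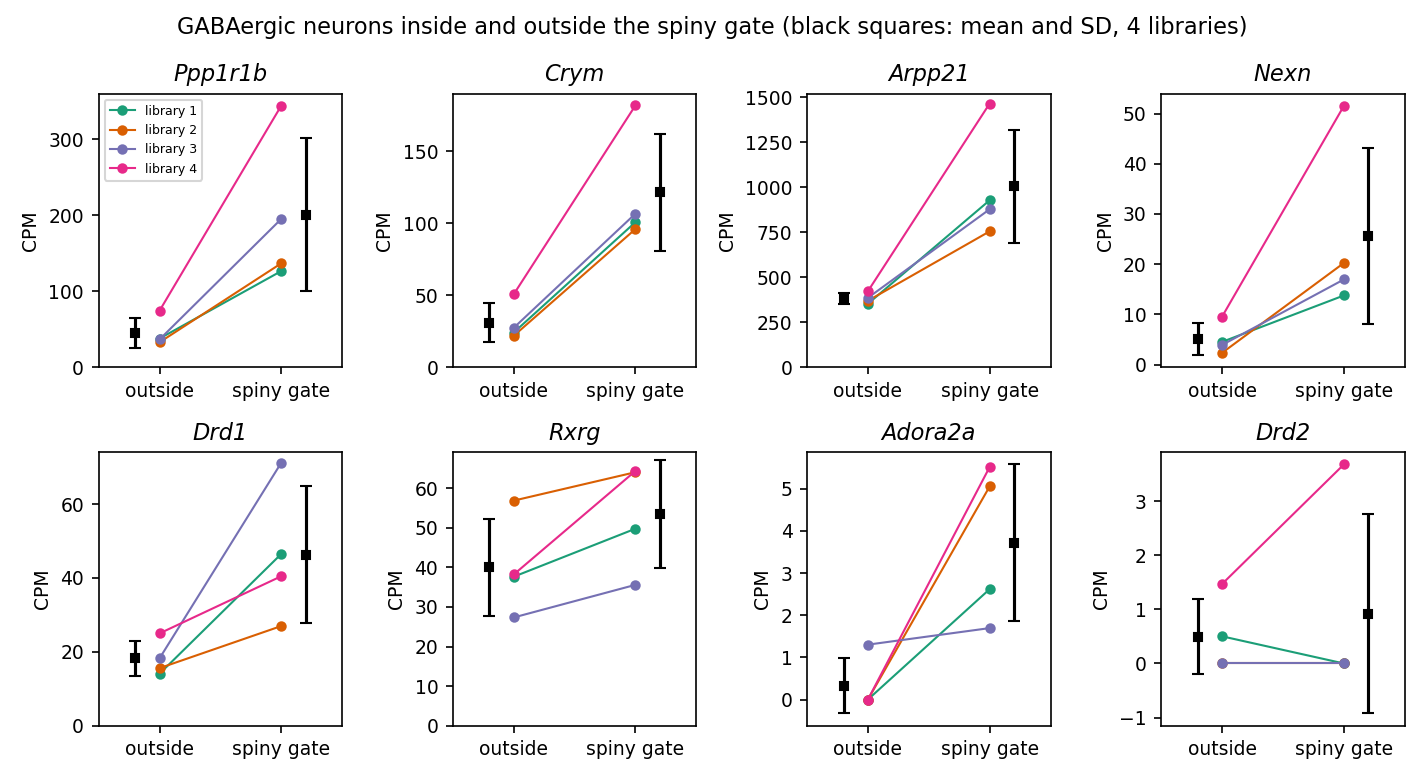
Level of each of the 8 genes (CPM, vertical axis) in GABAergic neurons outside and inside the spiny gate; coloured points joined by a line are the 4 libraries, and black squares with bars are mean and SD. Ppp1r1b, Crym and Arpp21 were higher inside the gate in each library, and Drd2 was near 0 on both sides.

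Glial and vascular markers were held under 2 UMIs per cell by the call of GABAergic neurons, so low sums were fixed in advance. In the gate, microglial, endothelial and oligodendrocyte precursor markers were all at 0. Astrocyte markers summed to between 1.31 and 9.20 CPM per library (2.34 to 10.4 outside) and oligodendrocyte markers to between 5.24 and 17.0 CPM (12.55 to 39.1 outside). Cholinergic markers summed to between 0.655 and 52.6 CPM inside (mean 25.6) and between 6.61 and 27.4 CPM outside (mean 12.8), and their part in the results was not tested. The mitochondrial share was 2.07 to 5.29% inside and 2.17 to 5.21% outside. In all, 270 genes were called, and 174 without library 4.

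Other genes of the dopamine pathway were higher as well. Of 38 signalling genes downstream of dopamine receptors, 4 defined the gate and 29 of the others were tested: 12 rose and 0 fell by edgeR (6 and 0 by DESeq2, 19 and 0 at an unadjusted p under 0.05), with a median log2 difference of 0.27 against -0.02 over all genes. They included Gng7 (1.08), a G protein subunit of spiny neurons, Adcy5 (0.77), the adenylyl cyclase that makes their cAMP, Gnal (0.65), the alpha subunit that couples D1 and A2a receptors to it, and the phosphodiesterases Pde7b (0.91) and Pde1b (0.57), which break it down. Of 22 genes of spiny neuron identity, 18 were tested, 10 rose and 0 fell (6 and 0 by DESeq2, 14 and 0 unadjusted; median 0.55), led by the sodium channel subunit Scn4b (4.16), Ankrd63 (1.30) and the transcription factor Foxp1 (1.09). Direct-pathway and indirect-pathway genes were both represented: 2 of 6 tested direct genes rose, Ebf1 (0.92) and Pdyn (0.83), and 2 of 6 tested indirect genes, Gpr6 (1.34) and Penk (1.23). By DESeq2 0 direct genes and 1 indirect gene passed, and at an unadjusted p under 0.05 there were 4 and 2. Ebf1, on the direct list, was also higher in neurons with Penk, as given below. Beyond the members, Scn4b and Gabrd (2.41), the GABA receptor delta subunit, had the largest rises seen in all 4 libraries. The largest falls were those of Avp (-6.27), Npy (-1.96), Sst (-1.76), Kit (-1.58) and Slc17a8 (-1.51). The first 3 encode neuropeptides, and Slc17a8 the vesicular glutamate transporter VGLUT3.

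Next, the members were read in 16 gates, each a set of GABAergic neurons that carried a marker of a subtype. A cell may meet several gates, so gates share cells and their values are set side by side: 514 neurons (24.1%) met none of the 12 subtype gates, 808 (37.9%) met exactly 1 and 809 (38.0%) met more. Each gate was tested against the neurons outside it. Over 128 pairs of member and gate, 85 could be tested and 58 were called, 21 higher and 37 lower, where between 0.295% and 8.82% of all genes were called in a gate. Arpp21 was called in 14 of its 16 gates, Ppp1r1b in 12, Crym in 11, Drd1 in 10, Rxrg in 8 and Nexn in 3 of 5; Drd2 and Adora2a never passed the filter.

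Tac1 neurons (247 cells with at least 2 UMIs of the substance P precursor) had the highest mean of 5 members. Of these cells, 108 (43.7%) also met the spiny gate, against 26.9% of all GABAergic neurons. Ppp1r1b was at 127, 116, 289 and 401.5 CPM there (log2 1.43 against the neurons outside, SE 0.15, adjusted p = 1.13e-07; without the block, 0.0699). Crym (1.71, SE 0.16, adjusted p = 7.52e-09) and Arpp21 (1.23, SE 0.08, adjusted p = 1.53e-13) were higher too. Among all genes, 1.42% were called higher in this gate. Drd1 was at 70.5, 47.1, 99.9 and 110 CPM, all above the 21.4 ± 7.31 CPM outside (1.93, SE 0.23, adjusted p = 1.40e-06). Nexn was at 18.1, 25.4, 26.3 and 90.8 CPM (2.2, SE 0.35, adjusted p = 1.94e-04). It did not pass without library 4, at 1.79 (adjusted p = 0.0682), or without the block (0.0711). Rxrg was not called (-0.29, SE 0.24, adjusted p = 0.737), and Drd2 and Adora2a had 0 UMIs.

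Penk neurons (519 cells with at least 2 UMIs of the enkephalin precursor) were higher in the phosphoprotein genes, while their Drd1 did not pass. Of these cells, 201 (38.7%) also met the spiny gate. Ppp1r1b was at 127, 126, 220 and 277 CPM (log2 1.38, SE 0.11, adjusted p = 1.03e-14), where 3.43% of genes were called higher. Crym (1.08) and Arpp21 (1.29) were also higher, at adjusted p = 6.33e-08 and 7.82e-23. Drd1 was at 36.1, 22.4, 30.4 and 8.87 CPM, a difference of -0.10 (SE 0.25, adjusted p = 0.910) that turned to 0.24 without library 4. Rxrg was highest in this gate of all 16, at 60.5, 97.5, 57.4 and 90.9 CPM against 34.1 ± 9.13 outside (1.12, SE 0.17, adjusted p = 1.31e-06). Of 6 direct-pathway genes tested, Ebf1 was higher here (2.59, adjusted p = 7.38e-13). Tac1 (-1.37), Isl1 (-0.57) and Sfxn1 (-0.43) of the same list were lower. Adora2a had 11 of its 12 UMIs here, and Drd2 3 of its 5. With no filter, the Adora2a difference passed in this gate (edgeR adjusted p = 0.0392), and that of Drd2 did not (0.906). Adora2a was at 5.34 ± 1.57 CPM inside and 0.181 ± 0.361 outside, where it had 1 UMI.

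Six3 neurons (442 cells with a UMI of this transcription factor of indirect-pathway neurons) had Ppp1r1b at 163, 145, 229 and 330 CPM (log2 1.68, SE 0.12, adjusted p = 1.07e-27), where 2.93% of genes were called higher. Crym (1.39, adjusted p = 5.09e-14), Arpp21 (1.22, adjusted p = 2.34e-42) and Rxrg (0.58, adjusted p = 0.0379) were higher, and Drd1 was not called (0.50, adjusted p = 0.251). The Rxrg call was lost without any 1 of the 4 libraries (adjusted p = 0.0574 to 0.399) and without the block (0.701). Adora2a had 10 of its 12 UMIs in this gate, and with no filter it did not pass (3.69, edgeR adjusted p = 0.0645). The gate overlapped the spiny gate by 165 cells, 37.3% of the Six3 cells and 28.8% of the spiny ones. In cells that met no other subtype gate, none of the 4 differences passed: Ppp1r1b 0.64 (adjusted p = 0.278), Crym 0.57 (0.563), Arpp21 0.40 (0.0798) and Rxrg 0.71 (0.402). Under a threshold of 3 UMIs in every gate they did not pass either, Ppp1r1b being 0.17 at adjusted p = 0.961.

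Tshz1 neurons (208 cells), named for a zinc finger gene known from striosomes and intercalated amygdala neurons, had a Ppp1r1b mean of 223 ± 107 CPM with a spread from 104 to 364 between libraries. Only 0.215% of genes were called higher here, Ppp1r1b (log2 1.14, SE 0.24, adjusted p = 0.0200) and Arpp21 (0.71, SE 0.13, adjusted p = 0.00721) among them. Neither passed without library 2, the highest (Ppp1r1b 0.71, adjusted p = 0.311, and Arpp21 0.45, adjusted p = 0.418), or without library 3 (1.17 and 0.68, adjusted p = 0.249 and 0.233), or without the block (0.686 and 0.629). The gate overlapped the spiny gate by 91 cells, 43.75% of the Tshz1 cells. Only 46 Tshz1 cells met no other subtype gate, with at least 10 in 2 libraries. Against spiny-gate cells treated the same way, Ppp1r1b was -3.75 (edgeR adjusted p = 0.0851), Crym -2.54 (0.439) and Arpp21 -1.88 (0.00517).

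**Figure D2:**
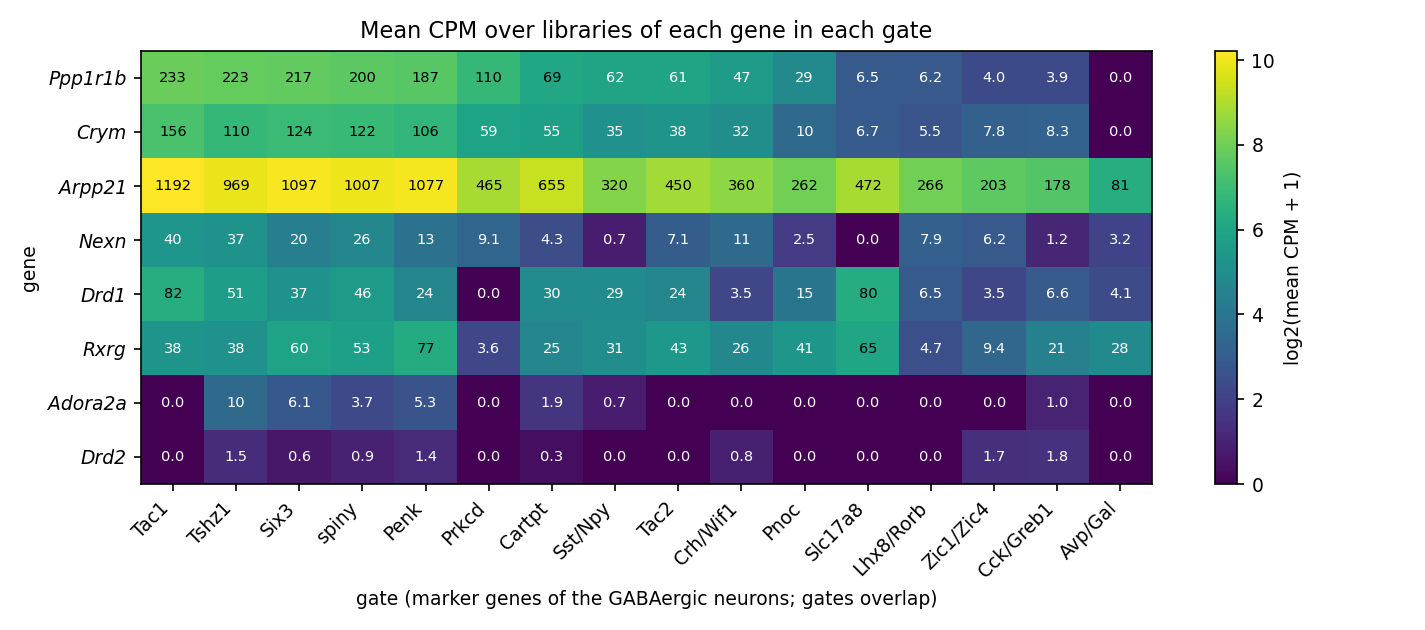
Mean CPM over libraries of each gene (rows) in each of the 16 gates (columns), printed in the cells and coloured as log2 of the mean plus 1; gates share cells. Ppp1r1b, Crym and Arpp21 had their 5 highest means in the Tac1, Tshz1, Six3, spiny and Penk gates, while Drd1 was also high in the Slc17a8 gate.

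The 5 gates with the highest means, and the gate with the lowest, were the same for 3 members. Ppp1r1b ran from Tac1 (233 ± 137 CPM) through Tshz1 (223 ± 107), Six3 (217 ± 83.7) and spiny (200.5 ± 100) to Penk (187 ± 74.2), means that lie within each other's SD. After a gap came Prkcd (110 ± 87.3, in 3 libraries), Cartpt (69.3 ± 23.4), Sst/Npy (62.2 ± 43.0) and Tac2 (61.4 ± 20.6), again within their spread. Crh/Wif1 (47.2 ± 23.8) and Pnoc (28.5 ± 18.3) were lower, and Slc17a8 (6.46 ± 4.80), Lhx8/Rorb (6.20 ± 7.34), Zic1/Zic4 (3.96 ± 6.39) and Cck/Greb1 (3.87 ± 5.49) were within their spread of one another. Avp/Gal had 0 UMIs. Crym and Arpp21 had the same 5 gates on top and Avp/Gal last. Between these the orders differed: the Slc17a8 gate had rank 7 for Arpp21 (472 ± 123 CPM), but rank 12 for Ppp1r1b and rank 14 for Crym. Drd1 was ordered differently: Tac1 (81.9 ± 28.6 CPM) and Slc17a8 (79.8 ± 31.8) lay within their spread, Tshz1 (50.7 ± 11.8), spiny (46.3 ± 18.5) and Six3 (36.9 ± 17.6) followed, and Prkcd had 0 UMIs.

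In several gates the tested members were lower together. All 5 members tested were lower in the Cck/Greb1 gate (Ppp1r1b -4.05 on the log2 scale, Arpp21 -1.81, Drd1 -2.41), with 2.38% of genes called lower, and in the Zic1/Zic4 gate (-4.64, -1.69 and -3.15), with 3.16%. The same held for Lhx8/Rorb (-3.55, -1.24 and -2.10), with 4.25%, and Crh/Wif1 (-1.16, -0.84 and -2.75), with 3.09%. Rxrg was the least stable of them, lost in the Cck/Greb1 gate without library 1 or 4 (adjusted p = 0.225 and 0.200) and in the Crh/Wif1 gate without each of the 4 (0.0503 to 0.220). Without the block, Rxrg in the Cck/Greb1 gate (0.199) and Ppp1r1b, Crym and Rxrg in the Crh/Wif1 gate (0.101, 0.119 and 0.343) did not pass. Cholinergic markers summed to between 4.28 and 297 CPM per library in the Lhx8/Rorb gate (0.659 to 10.6 outside) and between 6.69 and 265 CPM in the Zic1/Zic4 gate (0.963 to 4.98 outside); their part in the result was not tested. In cells that met no other subtype gate, Arpp21 in the Lhx8/Rorb gate turned to 0.11 (adjusted p = 0.975). Ppp1r1b (-3.48), Crym (-1.47) and Rxrg (-2.26) did not pass there either (edgeR adjusted p = 0.0638, 0.692 and 0.358). Treated the same way, Crym (-2.135, adjusted p = 0.206) and Rxrg (-0.77, 0.880) were lost in the Zic1/Zic4 gate. So was Rxrg in the Cck/Greb1 gate (-1.78, 0.215). In the Avp/Gal gate (70 cells), Ppp1r1b and Crym had 0 UMIs, at least 16.4-fold and 10.8-fold lower than outside against a floor of 3 UMIs over the gate, and Arpp21 fell by 2.86 on the log2 scale, where 1.04% of genes were called lower. Drd1 fell there as well (-2.83, from 2 UMIs, adjusted p = 0.0374), a call lost when any of the 4 libraries (0.05005 to 0.258) or the block (0.0925) was left out. The spiny gate took 31.5% of Cck/Greb1, 28.0% of Crh/Wif1, 26.5% of Lhx8/Rorb, 19.6% of Zic1/Zic4 and 30.0% of Avp/Gal cells. Of all GABAergic neurons it took 26.9%, so apart from Zic1/Zic4 these gates met it about as often.

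Neurons with a UMI of Pnoc, the nociceptin precursor that the study is named for, were also low in the set. In these 442 cells Ppp1r1b was at 10.5, 43.3, 15.1 and 45.2 CPM against 126 ± 44.7 outside (log2 -2.30, SE 0.25, adjusted p = 1.09e-05), with 1.21% of genes called lower. Crym (-3.16, adjusted p = 4.85e-06) and Arpp21 (-1.51, adjusted p = 1.67e-08) were lower too. Drd1 was at 21.1, 12.4, 18.1 and 7.13 CPM (-1.0, SE 0.26, adjusted p = 0.0397), a call lost without library 2, 3 or 4 (adjusted p = 0.0825, 0.102 and 0.171) or without the block (0.386). Nexn gave 7 UMIs (-2.29, adjusted p = 0.0152; without library 4, -1.72, adjusted p = 0.146; without the block, 0.127). Rxrg did not pass (-0.08, SE 0.19, adjusted p = 0.918). Of 33 signalling genes tested, 1 was higher and 8 lower, and of 17 identity genes 0 were higher and 7 lower, such as Foxp2 (-2.10), Foxp1 (-1.57), Meis2 (-1.31) and Bcl11b (-1.16). Of 6 direct-pathway genes 1 was higher, Tac1 (0.92), and 0 lower. Of 6 indirect-pathway genes 0 were higher and 2 lower, Penk (-1.41) and Six3 (-1.06).

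In the remaining gates few members were called. Arpp21 was lower in the Tac2 gate (-0.40, adjusted p = 0.0482, with 1.27% of genes called lower), but not without library 2 or 4 (adjusted p = 0.249 and 0.733) or the block (0.716). It was lower in the Sst/Npy gate as well (-0.86, adjusted p = 5.47e-05, with 0.407%; without the block, 0.522). Rxrg was lower in the Cartpt gate (-0.75, adjusted p = 0.0480, with 1.40%), a call lost without library 2, 3 or 4 (adjusted p = 0.221, 0.126 and 0.239) or the block (0.551). The Prkcd gate (49 cells in 3 libraries) held Ppp1r1b at 204, 32.0 and 93.9 CPM in libraries 1, 2 and 4, too far apart to call (0.12, SE 0.35, adjusted p = 0.923). Drd1 had 0 UMIs there, at least 2.61-fold lower than outside (adjusted p = 0.0480, with 3.57% of genes called lower). That call was lost without library 1, 2 or 4 (adjusted p = 0.277, 0.298 and 0.284) or the block (0.0629). Lost as well were those of Arpp21 (-0.62, adjusted p = 0.0407) without library 2 or 4 (0.843 and 0.643) or the block (0.517), and of Rxrg (1 UMI, -3.63, adjusted p = 0.00879) without library 1, 2 or 4 (0.0983, 0.138 and 0.128).

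To compare gates in a single fit, only neurons that met exactly 1 of the 12 subtype gates were kept, in 10 gates with enough cells. Ppp1r1b (adjusted p = 2.98e-21), Arpp21 (3.87e-25), Crym (8.34e-14) and Drd1 (3.96e-04) differed between gates, as did 10.7% of 4147 genes by edgeR's test over all gate terms. The spiny gate then held 155 cells, with Ppp1r1b at 191, 132, 435.5 and 366 CPM and Drd1 at 53.7, 17.6, 174 and 33.3. Against it, Sst/Npy neurons were lower in Ppp1r1b (log2 -2.30), Crym (-2.90) and Arpp21 (-3.24), with 4.78% of genes called, and their Drd1 did not pass (-0.84, SE 0.60, adjusted p = 0.636). Cck/Greb1 neurons were lower in Drd1 (-5.75, SE 1.31, adjusted p = 0.00126), with 4.06% called. Six3 neurons differed only in Arpp21 among the 4 members tested (-0.82, adjusted p = 0.0306, with 0.312% called). Their Ppp1r1b was -0.99 (adjusted p = 0.133), Crym -0.99 (0.393) and Drd1 -2.42 (SE 0.75, adjusted p = 0.205).

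The planned comparison of neurons with Drd1 alone and Drd2 alone could not be fitted, because 5 GABAergic neurons held a Drd2 UMI. None of them held a Drd1 UMI, and 0 of the 174 Drd1 neurons held one of Drd2 or Adora2a (exact 95% upper limit 2.10% for cells with a UMI of either gene). At these counts the absence is not a result: a Drd1 share of up to 52.2% among the 5 Drd2 neurons lies within the exact 95% interval. The 5 Drd2 neurons held other members, Arpp21 in 4, Ppp1r1b in 3 and Crym in 2, and 3 were in the Penk gate and 0 in the Tac1 gate. Of the 12 Adora2a neurons, 12 held Arpp21, 10 held Ppp1r1b, 9 held Crym and 0 held a Drd1 UMI (exact 95% upper limit 26.5%). They lay in the spiny gate (11 of 12), the Penk gate (11) and the Six3 gate (10), and 0 in the Tac1 gate.

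The peptide precursors served in place of the receptors, a comparison chosen after the counts of Drd2 were seen. Within the spiny gate, 82 neurons met the Tac1 gate but not the Penk gate (30, 14, 18 and 20 by library) and 175 met the Penk gate but not the Tac1 gate (61, 38, 26 and 50), at medians of 4545.5 and 4450 UMIs. Only 0.654% of 3824 genes were called, and 3 of the 5 members tested were among them.

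Drd1 was at 129.8, 89.1, 118.5 and 196 CPM in the Tac1 neurons and 41.1, 30.2, 39.3 and 0 CPM in the Penk neurons, without overlap (log2 2.12, SE 0.41, adjusted p = 0.00303). At 1000 UMIs per cell, 14.9% of the Tac1 neurons and 2.2% of the Penk neurons would show it. Without thinning, 36.6% and 9.71% held a UMI. Crym was at 275, 223, 292 and 465 CPM in Tac1 neurons and 82.3, 161, 144 and 172 in Penk neurons (1.26, SE 0.21, adjusted p = 5.03e-04). Rxrg went the other way, with 15.6, 14.8, 0 and 36.7 CPM against 71.5, 90.7, 78.6 and 99.97 CPM (-2.32, SE 0.50, adjusted p = 0.0107), from 7 and 81 UMIs. Rxrg was thus the only called member that was higher on the Penk side, in 4 of 4 libraries.

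None of the 3 calls held in every alternative. Drd1 did not pass by DESeq2 (2.32, adjusted p = 0.156), without library 1 (adjusted p = 0.0581) or without library 3 (0.0589). Crym did not pass by DESeq2 (0.214), without library 1 (0.0683) or without the block (0.0757), and Rxrg not by DESeq2 (0.772), without library 1 (0.234) or without library 3 (0.181). Their directions held in each of these fits.

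Ppp1r1b and Arpp21 were read on both sides. Ppp1r1b was at 265, 223, 392 and 796 CPM in Tac1 neurons and at 167, 207, 314 and 417 in Penk neurons (log2 0.59, SE 0.18, adjusted p = 0.185). Arpp21 differed by 0.49 (SE 0.13, adjusted p = 0.0913). Adora2a had 0 UMIs in the 82 Tac1 neurons, of which 3 counts would be 3.66% (a limit on cells with a UMI, not on expression), and 10 UMIs in the Penk neurons, at 8.66, 10.1, 6.55 and 16.7 CPM in libraries 1 to 4. Drd2 had 0 and 2 UMIs. Nexn, with 37 and 21 UMIs, was below the low-count filter; with no filter it was 1.82 higher in Tac1 neurons (adjusted p = 0.0105). A further 26 neurons met both gates and held 15 Drd1 UMIs in 12 cells and 0 of Adora2a.

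Genes that are no members were named by the size of their change. Pdyn, the dynorphin precursor of direct-pathway neurons, was higher in the Tac1 neurons (198 against 26.2 CPM, log2 2.81), as were Pde1c (1.63), Erbb4 (1.62) and Gnb4 (1.47). Nts, the neurotensin precursor, was lower (59.5 against 561 CPM, -3.24), as were Edil3 (-1.53), Lypd1 (-1.44) and the orphan receptor Gpr101 (-1.13). Of 25 signalling genes tested, 0 were called by edgeR or DESeq2 in either direction (3 higher and 1 lower at an unadjusted p under 0.05), and of 11 identity genes 1 rose (Pcp4, 0.89) and 1 fell (Nrgn, -1.04). Within the limit set by the GABAergic call, endothelial, microglial and oligodendrocyte precursor markers were at 0 in both sets. Oligodendrocyte markers reached 36.5 CPM and 15.1 CPM, and astrocyte markers 12.2 and 16.7 CPM.

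**Figure D3:**
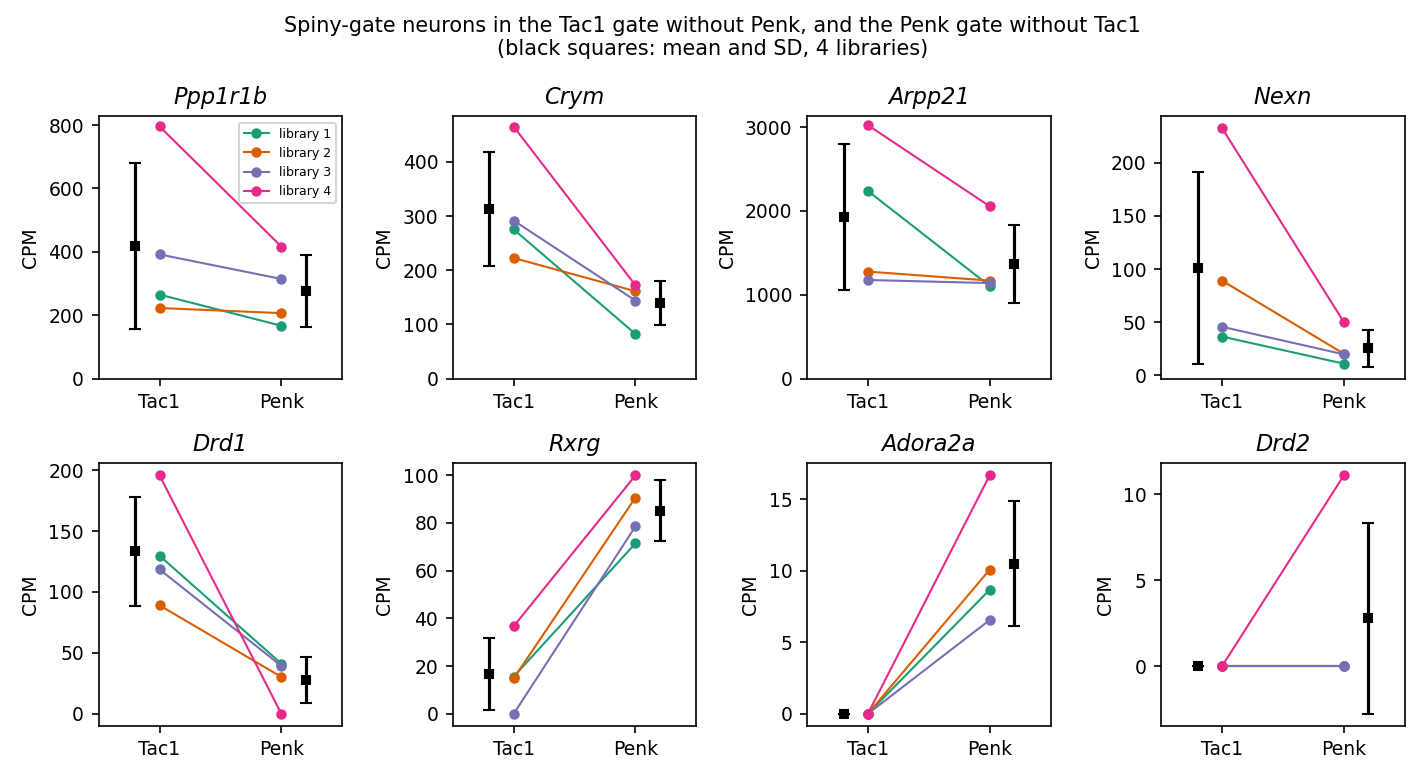
Level of each gene (CPM, vertical axis) in spiny-gate neurons with Tac1 but not Penk and with Penk but not Tac1; coloured points joined by a line are the 4 libraries, and black squares with bars are mean and SD. Drd1 and Crym were higher on the Tac1 side in each library, Rxrg and Adora2a on the Penk side.

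How far the members occur in the same cell was read from neurons with and without a UMI of Ppp1r1b, also chosen after the data were seen. The 277 neurons with one and the 1854 without had nearly the same depth, at medians of 3398 and 3469.5 UMIs. Of those with Ppp1r1b, 54.9% held Crym, against 4.64% of those without. At 1000 UMIs per cell this was 28.3 ± 2.29% against 2.09 ± 1.06% (n = 4), without overlap. Arpp21 was in 89.9% against 39.9%, Drd1 in 24.5% against 5.72%, Nexn in 11.2% against 1.46% and Rxrg in 20.6% against 12.8%. As summed levels, all 5 were higher beside Ppp1r1b, where 9.84% of 8742 genes were called higher and 19.4% in either direction: Crym by 4.51 on the log2 scale (SE 0.15), Nexn by 3.40 (SE 0.34), Arpp21 by 3.34 (SE 0.07), Drd1 by 2.35 (SE 0.21) and Rxrg by 0.85 (SE 0.20). The Rxrg difference did not pass by DESeq2 (adjusted p = 0.0629) or without the block (0.0546). Adora2a, with 10 and 2 UMIs, was below the low-count filter, and with no filter was 4.57 higher (edgeR adjusted p = 0.00224).

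The wider dopamine pathway followed Ppp1r1b. Of 33 signalling genes tested, 25 were higher and 3 lower (21 and 0 by DESeq2). Among the rises were Gng7 (2.42), Pde7b (1.88), Pde1b (1.83) and the muscarinic receptor Chrm1 (1.82). Of 19 identity genes, 14 were higher and 0 lower (0 lower at an unadjusted p under 0.05 or by DESeq2), with Scn4b (4.51), Rarb (2.89) and Ankrd63 (2.74) the largest. Genes of both pathways rose: Pdyn (2.37), Ebf1 (1.15) and Tac1 (0.49, in 3 of 4 libraries) of the direct list, and Gpr6 (2.87), Penk (2.23) and Six3 (1.46) of the indirect one. Sfxn1 of the direct list fell (-0.58). By DESeq2, 1 direct gene was higher and 1 lower, and 3 indirect genes were higher and 0 lower. Lhx8, a transcription factor of cholinergic and pallidal lineages, had 0 UMIs in the Ppp1r1b neurons. In all, 58.1% of the Ppp1r1b neurons were in the spiny gate, 46.9% in the Penk gate, 45.5% in the Six3 gate and 22.7% in the Tac1 gate, and 14.8% met none of the 12 subtype gates.

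Neurons with and without a Drd1 UMI were compared in the same way, again chosen after the data were seen. Of the 174 Drd1 neurons, 39.1% held Ppp1r1b, 31.0% Crym and 77.0% Arpp21, and 52.9% were in the spiny gate, against 26.9% of all GABAergic neurons. Without a Drd1 UMI, 10.7% of neurons held Ppp1r1b, 9.40% Crym and 43.7% Arpp21, at a median of 3426 UMIs against 3938 with one. Summed over Drd1 neurons, Ppp1r1b (log2 2.24, SE 0.15), Crym (2.32, SE 0.19), Arpp21 (1.85, SE 0.11) and Nexn (2.60, SE 0.39) were higher than in the 1957 other neurons, where 1.51% of 8794 genes were called higher and 2.32% in either direction, and Rxrg did not pass (0.67, SE 0.23, adjusted p = 0.158). The count of genes called in either direction was 204, and 118 and 132 without library 3 and library 4. The largest rise was that of Slc17a8, at 273 against 41.4 CPM (2.62, SE 0.21, adjusted p = 6.45e-10). Pdyn (2.23), Ebf1 (1.77), Tac1 (0.99) and Isl1 (0.87), which makes 4 of 6 tested direct-pathway genes, rose as well, and 0 of 5 indirect ones passed by edgeR or DESeq2, or at an unadjusted p under 0.05. Of these, Ebf1 was also higher in the Penk gate (2.59), where Tac1 and Isl1 were lower. Prkcd, which encodes protein kinase C delta of central amygdala and BNST neurons, had 0 UMIs in the Drd1 neurons.

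Drd1 was likewise high in the Slc17a8 gate. Its 109 neurons (22, 37, 16 and 34 by library; median 4037 UMIs) had Drd1 at 49.0, 56.2, 103 and 111.5 CPM, against 27.4, 15.7, 37.0 and 24.1 in the neurons outside. Every library inside was above every library outside (log2 1.60, SE 0.33, edgeR adjusted p = 1.83e-04), where 2.07% of genes were called higher. A Drd1 UMI was in 30 of these cells (27.5%) against 7.12% outside, and at 1000 UMIs in 8.33% against 3.00%. The call held in each alternative that was run. Ppp1r1b had 3 UMIs in the same neurons, at 8.16, 6.25, 11.4 and 0 CPM against 106 ± 41.0 outside (-4.03, SE 0.50, adjusted p = 4.16e-11, with 2.94% of genes called lower), and Crym had 4 (-2.98, SE 0.52, adjusted p = 5.68e-06). Arpp21, at 628, 512, 388 and 360 CPM, did not pass (-0.33, SE 0.12, adjusted p = 0.0717). Nexn had 0 UMIs, at least 1.97-fold lower than outside against a floor of 3, and Rxrg was at 65.5 ± 20.6 CPM (0.58, SE 0.30, adjusted p = 0.386).

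Other dopamine genes were also low in the Slc17a8 gate. Of 32 signalling genes tested, 1 was higher, the IP3 receptor Itpr1 (1.17), and 6 were lower, including Pde7b (-3.76), Gng7 (-1.67), Rgs9 (-1.46) and Gnal (-0.57). Of 14 identity genes, 2 were higher and 6 lower, and 3 of 6 direct-pathway genes were lower, Ebf1 (-3.42), Pdyn (-2.30) and Tac1 (-1.81). Of 5 indirect-pathway genes 2 were lower, Six3 (-1.36) and Sp9, which had 0 UMIs. The GABAergic call limited glial, vascular and glutamatergic markers in advance. Astrocyte, oligodendrocyte precursor, microglial, ependymal and Slc17a6 and Slc17a7 counts were all 0 in these cells, and GABAergic markers summed to between 2636 and 2873 CPM. Oligodendrocyte markers were at 8.58 to 32.6 CPM (8.54 to 29.9 outside) and cholinergic markers between 0 and 175 CPM (5.03 to 40.9 outside); their part in the result was not tested. In neurons that met only this subtype gate (73 cells), Drd1 was at 55.3, 80.1 and 114 CPM in the 3 libraries with at least 10 cells. Against the spiny gate treated the same way, Ppp1r1b was lower (-5.60 on the log2 scale, SE 0.70, adjusted p = 4.02e-10) and Arpp21 (-1.93, SE 0.27, adjusted p = 2.15e-08) too, with 3.51% of genes called. Drd1 did not pass (0.52, SE 0.60, adjusted p = 0.808).

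**Figure D4:**
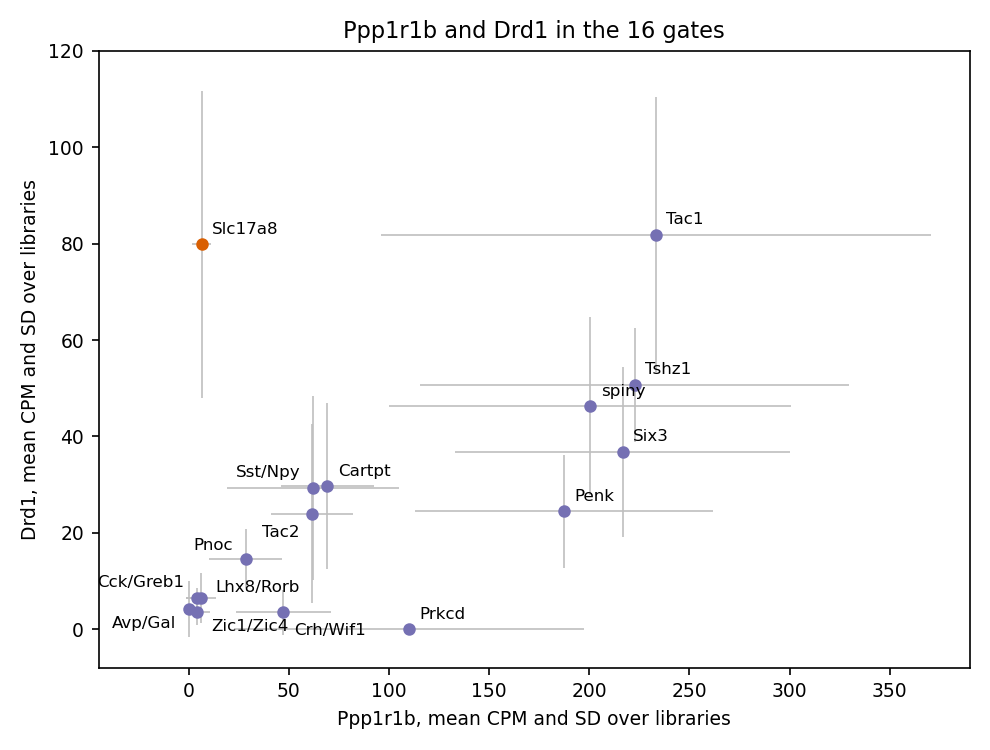
Mean CPM of Ppp1r1b (horizontal) and Drd1 (vertical) in the 16 gates, with SD over libraries as grey lines; gates share cells. The Slc17a8 gate (orange) had Drd1 at 79.8 CPM with Ppp1r1b at 6.46 CPM, while the Tac1 gate was high in both.

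Drd1 neurons were then split by Ppp1r1b, a comparison added after the data were seen. The 68 neurons with a Ppp1r1b UMI (25, 10, 16 and 17 by library) and the 106 without (39, 21, 20 and 26) had medians of 3554 and 4208 UMIs. Drd1 itself, which sorted the cells, was at 364 ± 107 and 298 ± 78.1 CPM. Crym was at 370.5, 574, 499.8 and 1023 CPM in the first set and 7.28, 64.4, 25.2 and 11.8 in the second (log2 4.60, SE 0.36, adjusted p = 1.23e-09), from 169 and 11 UMIs. Arpp21 was at 3460, 2961, 2962 and 5986 CPM against 513, 386, 858 and 437.5 (2.77, SE 0.20, adjusted p = 5.45e-10). Neither overlapped between the sets, where 5.93% of 2007 genes were called higher and 9.57% in either direction. Nexn had 37 UMIs in the first set and 0 in the second. Rxrg had 26 and 30 UMIs, below the filter, and with no filter differed by 0.55 (adjusted p = 0.961).

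Pdyn (log2 2.39) and Tac1 (1.75) were higher in the Drd1 neurons with Ppp1r1b, 2 of the 4 tested genes of the 10 on the direct list, and so were 12 of 21 signalling genes, such as Gng7 (1.99), Camk4 (1.92), Gnal (1.68) and Pde10a (1.64). None of the 21 was lower by edgeR or DESeq2, and 1 was at an unadjusted p under 0.05. Of 9 identity genes 5 were higher, led by Foxp1 (2.90) and Bcl11b (1.49). List medians were 0.91 for signalling, 1.05 for identity and 1.32 for direct genes, against -0.03 over all genes tested. Pcp4l1 (3.34) and Unc13c (2.83) were the other large rises. The Drd1 neurons without Ppp1r1b had more Sst, the somatostatin precursor (2334 against 104 CPM, log2 -4.12 in those with Ppp1r1b), Slc17a8 (426 against 36.6 CPM, -3.28, adjusted p = 1.69e-05), Plcb4 (-2.92), Calb2, which encodes calretinin (-2.79), and Resp18 (-2.55). By library, Sst was at 2696, 697, 290 and 5652 CPM without Ppp1r1b and at 251, 30.2, 0 and 135 CPM with it.

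The Tac1 gate held most of the first set. Of the Drd1 neurons with Ppp1r1b, 60.3% met the Tac1 gate (56.0, 60.0, 62.5 and 64.7% by library), against 14.2% of those without (17.9, 19.0, 5 and 11.5%). The spiny gate took 77.9% (92.0, 50.0, 87.5 and 64.7%) and 36.8% (48.7, 38.1, 55.0 and 3.85%), which overlap. The Slc17a8 gate took 1.47%, a single cell in library 3, and 27.4% (15.4, 38.1, 25.0 and 38.5%). The Penk gate took 23.5% and 24.5%, close to the 24.4% of all GABAergic neurons. The Sst/Npy gate took 13.2% (32.0, 0, 0 and 5.88%) and 17.9% (25.6, 19.0, 5 and 15.4%), which overlap, against 12.8% of all GABAergic neurons. Within the limit set by the GABAergic call, astrocyte, oligodendrocyte precursor, endothelial, microglial and ependymal markers were at 0 in the neurons with Ppp1r1b. Oligodendrocyte markers were at up to 38.6 CPM. In those without, astrocyte markers reached 11.8 CPM and oligodendrocyte markers 37.9 CPM.

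**Figure D5:**
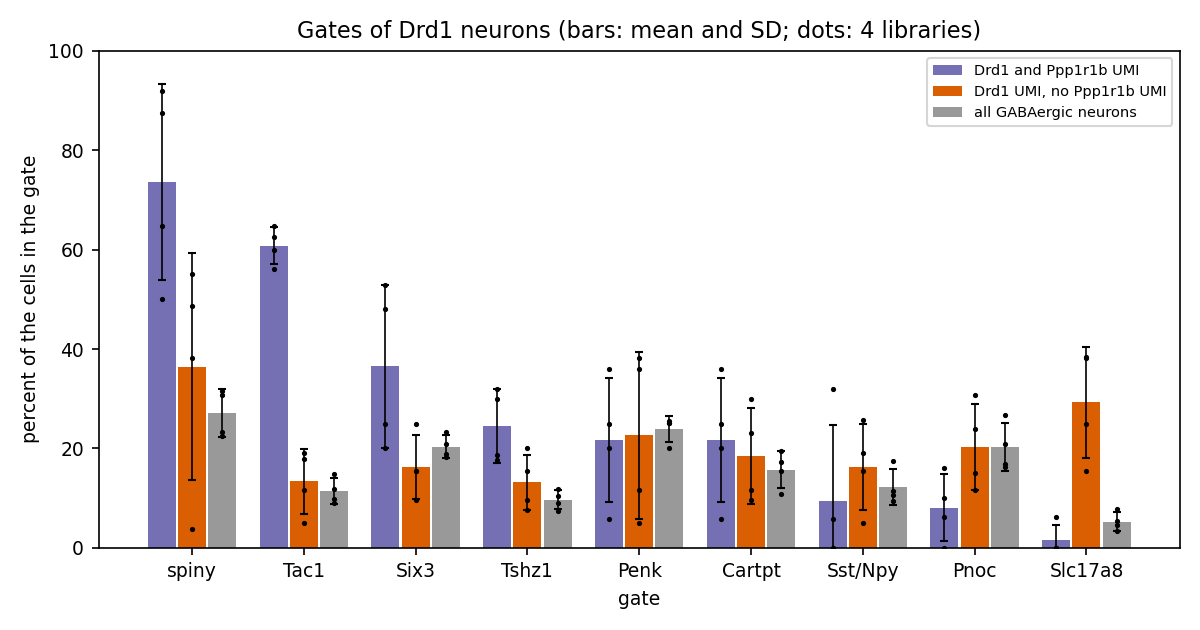
Percent of cells (vertical axis) in each of 9 gates among Drd1 neurons with a Ppp1r1b UMI, Drd1 neurons without one and all GABAergic neurons; bars are means, error bars SD and dots the 4 libraries. The Tac1 gate held 56.0 to 64.7% of the first set and 5 to 19.0% of the second, and the Slc17a8 gate 0 to 6.25% and 15.4 to 38.5%.

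Genes with the most similar pattern were ranked by Pearson's r of mean log2(CPM + 1) over the 10 exclusive gates, among 4143 genes, as a description of means that share libraries. Crym was closest to Ppp1r1b (r = 0.938), then Lmo7 (0.915), Col6a1 (0.869), Fosb (0.865) and Fam76a (0.848). For Drd1 they were Lancl1 (0.892), the GABA-B receptor subunit Gabbr1 (0.853), Bcl11b (0.834), 8430419L09Rik (0.824) and Pde4b (0.820). Drd2 was too low to rank.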

How the data were processed

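The authors deposited a table of raw UMI counts per gene and cell barcode for each library, with no normalisation, in which every listed gene has at least 1 count. Per the submitters' processing notes, bcl2fastq 2.18.0.12, STAR 2.4.2a and Picard 2.2.4 were used with mm10/GRCm38; the annotation and counting strand are not given in the sources used here.

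Cells with at least 400 genes and at most 10% mitochondrial UMIs were kept, and doublets called per library by Scrublet in scanpy 1.11.5 (expected rate 0.05) were removed, 58 in all. Counts were summed per library and class (at least 10 cells) and tested in edgeR 4.0.16 with R 4.3.3. The fit used TMM scaling, the filterByExpr filter on low counts and the quasi-likelihood F-test, and p-values were adjusted over all genes tested by Benjamini-Hochberg (threshold 0.05). Library was a block, because a gate and the neurons outside it were drawn from a single pool of mice in each library. Other fits left out the block or 1 library, or used DESeq2 1.42.0, RLE scaling or other filters and gates. Python 3.11.15 and matplotlib 3.10.9 were used elsewhere. Standard errors were derived from the fold change and its F value. Cells are not replicates. With the block, p-values weigh the difference within a library against its variation over the pools, not against the spread of pool levels. Dispersions were moderated across genes in the quasi-likelihood fit. In a test on simulated counts, where 200 genes were given a 2-fold change, 82% were recovered for the spiny gate among 9146 genes with 4.09% wrong calls, and 49% across exclusive gates among 3476 with 3.92%. The simulated libraries differed in depth alone, without the library differences of the real counts, so these rates need not hold for the real counts.

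Gates asked for 2 UMIs over Rgs9, Rasd2, Pde10a and a further gene of the spiny set that is not reported here, Prkcd, Cck and Greb1, Tac2, Sst and Npy, Crh and Wif1, Avp and Gal, Penk, Tac1 or Cartpt, and for 1 UMI over Lhx8 and Rorb, Slc17a8, Six3, Zic1 and Zic4, Tshz1 or Pnoc. Neurons shallower than 1000 UMIs were left out of shares at that depth. The members, gene lists and tests were chosen with earlier results of these data known. Named were the members, up to 6 called genes per list with the largest change, the 5 largest rises and falls seen in all 4 libraries, and the 5 genes most like Ppp1r1b, Drd1 and Drd2. Gpr52 and Slc18a3 had no row in the tables. Positions come from GENCODE vM21 and 4 of 8 members matched a RefSeq promoter.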

Additional observations from a re-analysis of the deposited data

Results flagged for a closer look

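Of 71 sets of 4 library values with at least 20 UMIs, 7 held a library far from the other 3 by Dixon's criterion; chance gives about 3.55. Library 4 was the high one in 6 of them. Nexn in all GABAergic neurons was at 21.5 CPM there, against 7.99 to 9.58 in the others. Nexn was also high in its Tac1 gate (90.8 against 18.1 to 26.3 CPM), Six3 gate (46.2 against 7.45 to 13.7 CPM) and Penk gate (24.4 against 8.13 to 10.1 CPM). Crym was high in the spiny gate of library 4 (182 against 96.1 to 107 CPM) and in its Six3 gate (205 against 85.0 to 105 CPM). The gates share cells, so these sets are not independent. In library 2, Arpp21 was at 504 CPM in the Lhx8/Rorb gate, against 167 to 216 CPM elsewhere. The cause was not tested.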

How the results depend on the processing

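Of 77 member results past the threshold, 34 lost it in at least 1 alternative. Over 987 alternatives of the 77, 870 kept direction and call, 116 kept direction only and 1 changed direction, Arpp21 in the Lhx8/Rorb gate (0.11 with exclusive gates). With exclusive gates 10 of the 23 calls that could be run were lost. Without the replicate block 21 of 77 calls were lost, and the genes called fell from 270 to 14 for the spiny gate, 442 to 247 across exclusive gates, 25 to 7 for Tac1 against Penk neurons, 204 to 45 for Drd1, 1692 to 780 for Ppp1r1b and 192 to 104 for Drd1 neurons split by Ppp1r1b. DESeq2 called 58 for the spiny gate and 8, 92, 888 and 68 for the last 4. Leaving out each library gave 174 to 232 for the spiny gate, 275 to 390 across exclusive gates, 8 to 38 for Tac1 against Penk (13 without library 1, 8 without library 3 and 38 without library 4), 118 to 175 for Drd1, 1133 to 1490 for Ppp1r1b, 138 to 178 for the split, 46 to 54 called member and gate pairs against 58, and 6380 to 7082 against 7015 for neurons. Without the low-count filter Tac1 against Penk gave 53 and Drd1 336. Tac1 against Penk gave 11 at a mitochondrial limit of 5%, 9 at 3 UMIs and 61 at 1 UMI per gate, where the exclusive fit gave 169. Exclusive gates called 15 of 29 pairs, against 58 of 85.

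Changes of direction otherwise fell on 11 of the 30 member results that had not passed. Leaving out each library gave -0.93 to 0.55 for Ppp1r1b and -0.82 to 0.57 for Crym in the Prkcd gate, -0.15 to 0.21 for Rxrg in the Tac2 gate, -0.25 to 0.82 for Drd1 and -0.79 to 0.0050 for Rxrg in the Sst/Npy gate, -0.24 to 0.048 for Rxrg in the Pnoc gate, -0.64 to 0.24 for Drd1 in the Penk gate, and -0.38 to 0.27 for Crym (0.10 without library 3) and -0.33 to 0.48 for Drd1 in the Cartpt gate. A mitochondrial limit of 5% turned Rxrg in the Tac2 gate (-0.073) and Crym in the Cartpt gate (0.34), and 5 GABA marker UMIs turned Crym in the Prkcd gate (0.13). At 1 UMI per gate Ppp1r1b in the Prkcd (-0.23), Drd1 in the Tac2 (0.0030) and Rxrg in the Sst/Npy (0.047) gates turned, and at 3 UMIs Drd1 in the Six3 (-0.40) and Penk (0.026) gates and Rxrg in the Pnoc gate (0.19). The cause was not tested. The comparison of Drd1-only with Drd2-only neurons and the Drd1 share among Drd2 cells were not run, with 5 Drd2 neurons. Low counts limit Drd2, Adora2a and Nexn.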
